A study of Mus musculus with 5 samples.

Results

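Deep intronic NEUROD2 regions are places in introns, over 50 kb from the start of the longest transcript of any gene, where chromatin of the embryonic mouse cortex was precipitated by antibodies against the transcription factor NEUROD2. Peaks of 3 antibodies that shared at least 1 bp were merged, and the 32261 resulting regions that had peaks from 2 or more antibodies on chromosomes 1 to 19, X and Y were kept. A region was deep intronic when its midpoint lay in an intron of the longest transcript of a protein-coding gene and over 50 kb from the closest transcription start site (TSS), taking the longest transcript of every annotated gene of any type. This held for 3787 regions, 11.7% of all (95% Wilson interval 11.4 to 12.1%).

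ChIP-Seq was carried out on the cerebral cortex of BALB/c embryos at E14.5, with chromatin pooled over embryos. Each of 3 NEUROD2 antibodies gave 1 library, with ab1 from mouse and both ab2 and ab3 from rabbit, and 2 further libraries made with GFP antibodies served as peak-calling controls, of which ab2 and ab3 share the rabbit one. No genotype, treatment or age was compared, so the 3 antibodies are 3 measurements of a single condition and the spread between them mixes antibody and library. The whole cortex was used, so regions cannot be assigned to neurons of a given layer or to progenitors. The peak lists of ab1, ab2 and ab3 hold 51841, 35310 and 7470 entries, and since peak lists give no read coverage, intervals on counts and shares cover counting error only.

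NEUROD2 is a basic helix-loop-helix factor of the neuronal lineage. Factors of this family bind DNA as dimers with E proteins at the E-box, a short palindrome-like element with CA at its start and TG at its end. In the developing cortex NEUROD2 is found in young glutamatergic projection neurons, and long introns of neuronal genes hold many regulatory elements that act at a distance from the promoter.

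The 200 bp centres of 5 deep intronic regions show what the antibodies recovered. They are among the regions with the highest scores in the weakest of their 3 antibodies among those that hold the extended E-box, with at most 1 per gene. The score of a peak is its p-value on the −log10 scale, multiplied by 10. Sequences are the upper strand of mm10 (GRCm38) from RefSeq, in lower case, and capitals mark the extended E-box on either strand (CAGCTG, also CAGATG with its complement CATCTG, and also CATATG, where the base after it is G or T, or where the base before it is A or C as the other strand reads it). They lie in introns of Trak1, a kinesin adaptor of mitochondria (chr9:121398161-121398360), Glis3, a zinc finger factor (chr19:28436709-28436908), Sema6d, a transmembrane semaphorin (chr2:124524390-124524589), Nfasc, an adhesion molecule of the axon initial segment (chr1:132650692-132650891), and Nkain3, a membrane protein that interacts with the sodium pump (chr4:20460438-20460637).
Trak1: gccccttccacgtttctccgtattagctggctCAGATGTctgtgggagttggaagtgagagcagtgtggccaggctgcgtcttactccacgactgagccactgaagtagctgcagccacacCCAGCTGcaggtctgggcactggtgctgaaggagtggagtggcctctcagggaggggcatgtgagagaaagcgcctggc
Glis3: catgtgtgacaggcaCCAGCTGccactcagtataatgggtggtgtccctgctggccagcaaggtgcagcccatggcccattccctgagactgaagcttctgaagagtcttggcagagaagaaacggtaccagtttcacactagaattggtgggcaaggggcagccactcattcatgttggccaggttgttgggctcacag
Sema6d: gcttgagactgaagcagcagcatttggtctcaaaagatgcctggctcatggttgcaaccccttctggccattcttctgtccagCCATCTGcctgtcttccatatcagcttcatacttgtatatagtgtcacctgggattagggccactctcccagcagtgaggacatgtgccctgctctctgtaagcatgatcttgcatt
Nfasc: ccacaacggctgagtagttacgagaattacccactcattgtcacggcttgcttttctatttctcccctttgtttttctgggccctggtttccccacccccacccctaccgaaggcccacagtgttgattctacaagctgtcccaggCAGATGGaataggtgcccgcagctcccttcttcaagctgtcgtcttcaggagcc
Nkain3: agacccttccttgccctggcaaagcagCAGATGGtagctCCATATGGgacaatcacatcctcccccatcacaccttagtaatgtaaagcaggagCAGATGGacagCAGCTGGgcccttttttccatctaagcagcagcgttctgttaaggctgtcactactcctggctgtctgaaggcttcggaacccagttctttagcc

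The Trak1 region scored 3100 with ab1, 3100 with ab2 and 1240 with ab3 and lay 51705 bp from the closest TSS, in intron 3 of the gene. The Sema6d region scored 3100, 3078 and 840.4 and lay 184165 bp away, in an intron of 163568 bp. A score of exactly 3100 recurred in 83 deep intronic regions with ab1, so ab1 scores at that value cannot be ranked among themselves. The Nkain3 window held 4 extended E-boxes, the closest centred 3 bp from the midpoint, and the Trak1 window held 2. In the other 3 windows there was 1. Among the 6 deep intronic regions with the highest lowest-of-3 score, those in Gsg1l, Nfia and Zdhhc14 had no extended E-box in the central 200 bp. The Nfia region, in a gene of the nuclear factor I family, scored 3100, 3136 and 1043 and lay 304 bp from the start of another annotated transcript, although 102375 bp from the closest TSS of the longest transcripts.

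At the threshold, the nearest regions inside it lay in Ext2, Mad1l1 and Galntl6 at 50006, 50033 and 50067 bp, with ab1 scores of 519.6, 67.85 and 457.9. The nearest outside lay in Nxn, Slc8a3 and Frmpd2 at 49997, 49979 and 49977 bp, with ab1 scores of 1002, 340.7 and 268.5. At the far end, the 3 most distant regions were all in Rbfox1, which encodes a neuronal splicing regulator, at 864138, 830294 and 808649 bp. The median distance was 88478 bp, 1569 regions lay over 100 kb away, 347 over 200 kb and 34 over 500 kb. Of those 34, 23 were in Rbfox1.

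Deep introns were occupied more densely than the equally distant genome outside genes. They held 15.3 regions per Mb (exact Poisson interval 14.8 to 15.8) over 247.5 Mb, which is 9.35% of the known bases. Introns of coding genes between 1 and 50 kb from a TSS held 13.9 per Mb, and sequence outside transcripts over 50 kb from a TSS held 7.49. The ratio of deep introns to the latter was 2.04 (1.95 to 2.14). With each antibody's own peaks the ratios of ab1, ab2 and ab3 were 2.06, 2.08 and 2.03, or 2.06 ± 0.026 (SD, n = 3). The antibodies thus lay close together although their own densities in deep introns differed widely, at 24.0, 16.8 and 3.84 peaks per Mb. The exact sign permutation test over the 3 antibodies gave p = 0.25, the smallest value that 3 libraries allow. Densities count all known bases, although reads with several positions were removed before peak calling. Windows 1000 bp beyond the upper end of regions were 21.0% repeat-masked in deep introns and 25.3% outside transcripts over 50 kb away. The part of repeats in the density ratio was not tested.

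**Figure D1:**
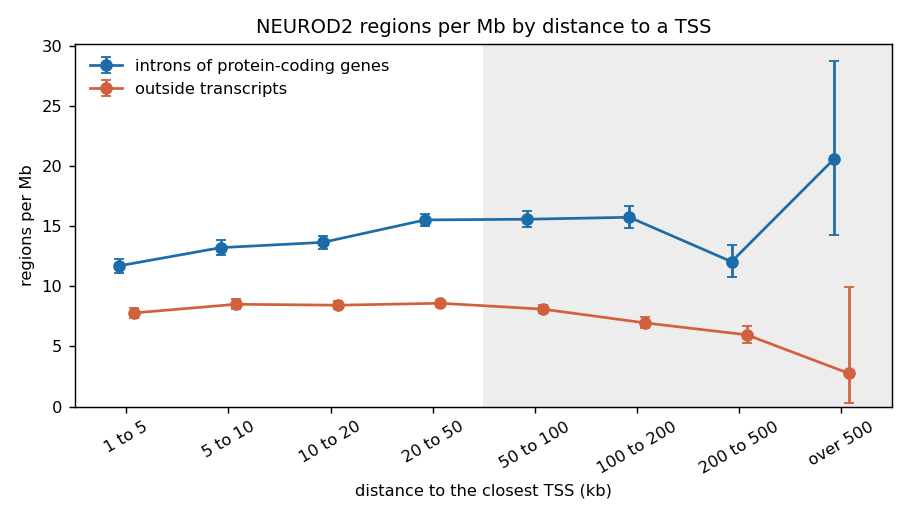
Regions per Mb (y axis) by distance to the closest TSS in kb (x axis), in introns of protein-coding genes and outside transcripts, with exact 95% Poisson intervals as bars and the grey area over 50 kb. In introns the density was 15.6 per Mb at 50 to 100 kb and 12.1 at 200 to 500 kb, against 8.11 and 5.96 outside transcripts.

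The plot of density by distance shows that introns did not lose regions steadily with distance. Density rose from 11.7 per Mb at 1 to 5 kb to 15.5 at 20 to 50 kb, stayed at 15.6 at 50 to 100 kb and 15.7 at 100 to 200 kb, and was 12.1 (10.8 to 13.5) at 200 to 500 kb. Beyond 500 kb the 34 regions gave 20.6 per Mb, with a wide interval of 14.2 to 28.7, and most of them came from a single gene. Outside transcripts the density was 8.59 at 20 to 50 kb and 5.96 (5.28 to 6.71) at 200 to 500 kb. In every distance class from 1 kb on, the interval for introns lay above that for sequence outside transcripts.

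Median scores of ab1, ab2 and ab3 were 278.6, 142.9 and 93.6, against 291.2, 144.6 and 91.5 in introns nearer to a TSS and 274.5, 142.3 and 90.5 outside transcripts over 50 kb away. The difference from nearer introns went down for ab1 and ab2 and up for ab3 (exact sign permutation p = 0.75), and the ratios to the distant genome outside transcripts were 1.02, 1.00 and 1.04 (p = 0.25, the smallest possible). Peaks of all 3 antibodies were present in 923 deep intronic regions, 24.4% (23.0 to 25.8%). This share exceeded that of nearer introns by 0.457 percentage points (95% Newcombe interval −1.14 to 2.09), so a difference was not detectable, and it exceeded that of all other regions together by 2.47 points (1.04 to 3.94). Of the other 2864 regions, 2861 joined ab1 and ab2, and only 3 were found without 1 of those antibodies. Within deep intronic regions the log10 scores of ab1 and ab2 correlated with Pearson's r = 0.899 and Spearman's rho = 0.864 over 3784 regions, ab1 and ab3 with 0.707 and 0.762 over 925, and ab2 and ab3 with 0.797 and 0.801 over 924. These are descriptions across regions that share their libraries. Regions with all 3 antibodies had a median ab1 score of 1164 and a median width of 1057 bp, against 204.5 and 759 bp for the rest. The widest regions measured 4216 bp in an intron of Gse1 on chromosome 8, 3835 bp in Gsg1l and 3686 bp in the potassium channel gene Kcnn3, and all 3 had peaks of every antibody.

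The regions were spread along their genes. The median position was 57.7% of the way along the transcript, 188911 bp from the host gene's own TSS, and the median distance to the closest exon was 15483 bp. Density was highest in first introns (18.5 per Mb, 17.1 to 19.9), close to that in second introns (17.7, 16.4 to 19.1), and lower in later introns (14.1, 13.5 to 14.7). It was 12.3 per Mb (11.0 to 13.6) within 1 kb of an exon and 16.3 (15.5 to 17.1) over 20 kb from the closest exon. Neighbouring deep intronic regions of a gene were separated by a median of 15225 bp, and 1743 regions (46.0%) fell into 697 runs in which each lay within 10 kb of the next. The longest run held 11 regions over 43563 bp on chromosome 8, at chr8:120282416-120325978. Runs of 9 were found in Tmem131l over 27436 bp and in Btbd11 over 36427 bp.

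The distance depends on the transcripts used. Of the 3787 regions, 2078 were over 50 kb from the start of every annotated transcript, and 1709 had another transcript starting within 50 kb. Both sets had peaks of all 3 antibodies in 24.4% and 24.3% of regions and median ab1 scores of 277.7 and 279.2. In 152 regions (4.01%, 3.43 to 4.69%) such a start was within 1 kb, while 1.65% of deep intronic bases are that close to one. These 152 carried the extended E-box in 42.8% of centres (35.2 to 50.7%), against 66.7% (65.1 to 68.2%) of the remaining 3635, a difference of −23.9 percentage points (−31.6 to −15.8). They were also wider, with a median of 1050 bp against 802 bp. The annotated gene model Gm20388 spans 4435 kb of chromosome 8 and 71 other protein-coding genes. It counted as host of 30 regions, 19 of which also lay in an intron of Gse1, which encodes a coiled-coil protein and had 165.4 regions per Mb of deep intron (99.6 to 258.2), and 10 regions were deep intronic through Gm20388 alone.

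The E-box marked the centres of deep intronic regions. The extended E-box was present in the central 200 bp of 2488 regions, 65.7% (64.2 to 67.2%), and in 22.3% of windows of the same length that start 1000 bp beyond the upper end of the region, a ratio of 2.94. Only the centre held it in 1943 regions and only the flank in 300 (McNemar's exact test, two-sided, p = 6.73e-294). With each antibody's own peaks the centre shares of ab1, ab2 and ab3 were 66.9%, 65.1% and 74.1%, or 68.7% ± 4.76 (SD, n = 3), and the ratio to the flank was 2.96, 2.86 and 3.21. Over all regions of the series the share was 59.6%. Centres had a higher GC content than flanks, 48.3% against 43.4%, and fewer repeat-masked bases, 9.56% against 21.0%. The part of base composition in the E-box shares was not tested. The test treats regions as independent, although regions of a run share their surroundings. The authors found the extended E-box by a motif search in the merged peaks of these same libraries. Its excess in centres over flanks was thus favoured by the choice of motif. The p-value is therefore no independent test of the motif, and the shares and ratios are descriptions.

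**Figure D2:**
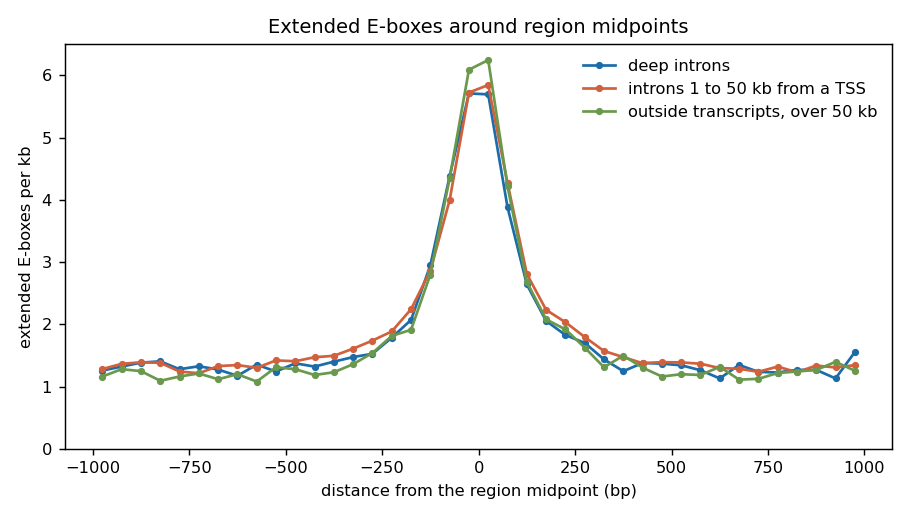
Extended E-boxes per kb (y axis) in 50 bp bins by distance in bp from the region midpoint (x axis), in deep introns, introns 1 to 50 kb from a TSS and sequence outside transcripts over 50 kb from a TSS. In deep introns the level was 5.71 per kb in the 50 bp below the midpoint and 1.26 in the bin farthest below it.

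The profile of E-boxes around the midpoint was narrow and had nearly the same shape in all 3 contexts. In deep introns there were 5.71 and 5.69 extended E-boxes per kb in the bins on either side of the midpoint and 2.95 and 2.64 in the bins centred 125 bp away. A single E-box was found in 1589 centres, 2 in 711 and 3 or more in 188, and 1299 centres had none. The share of centres with an E-box did not differ detectably from nearer introns (64.1%, difference 1.59 points, −0.217 to 3.37). It was lower than outside transcripts over 50 kb away (68.5%, difference −2.80 points, −5.00 to −0.591) and higher than in all other regions together (58.8%, difference 6.86 points, 5.23 to 8.46). Mean GC content of the centres went the other way, from 50.6% in nearer introns to 48.3% in deep introns and 46.4% outside transcripts. Within deep introns the share was 64.0% (62.0 to 66.0%) at 50 to 100 kb, 66.9% (64.2 to 69.4%) at 100 to 200 kb, 71.6% (66.3 to 76.3%) at 200 to 500 kb and 79.4% (63.2 to 89.7%) in the 34 regions beyond. Rbfox1 alone held 23 of these 34.

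The share of centres with the E-box was lower in the regions with the highest ab1 scores. By quartile of ab1 score, from lowest to highest, the share was 67.6%, 68.7%, 66.6% and 60.0%, and the highest quartile differed from the others together by −7.63 percentage points (95% Newcombe interval −11.2 to −4.09). The same quartile had peaks of all 3 antibodies in 74.7% of its regions, against 1.48% in the lowest. Regions with 3 antibodies had the E-box in 63.1% (59.9 to 66.1%) and regions with 2 in 66.6% (64.8 to 68.3%), intervals that overlap. Regions with 3 antibodies were also wider, with a median of 1057 bp against 759 bp. In ab3's own 950 deep intronic peaks, which are a different set, the share was 74.1%. With every deep intronic region placed at the middle of its highest peak, the ratio to the flank was 2.97, against 2.94 at the midpoint. Whether width or placement bears on the share in regions with 3 antibodies was not tested. Centres with 3 or more E-boxes had peaks of all 3 antibodies in 32.4% (26.2 to 39.4%) and a median ab1 score of 312.0, against 26.3% (23.9 to 28.7%) and 308.7 for centres with none.

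Among the 10 forms of the CANNTG hexamer, searched on both strands, CAGATG was the most frequent in deep intronic centres, with 48.4% of centres and 15.7% of flanks, a ratio of 3.09. CAGCTG followed with 27.1% and 8.77% (ratio 3.10) and CATATG with 551 centres and 244 flanks (ratio 2.26). CACCTG exceeded its flanks by a ratio of 1.38, CACGTG by 1.50, CAACTG by 1.28, CACATG by 1.15 and CAAATG by 1.14, all past the threshold after Benjamini-Hochberg adjustment over the 10 forms. For CAAGTG (1.08) and CAATTG (0.918) no difference was detected (McNemar's exact test, adjusted p = 0.279 and 0.596). Deep intronic centres had CATATG more often than nearer introns by 2.60 points (1.32 to 3.92) and CAGCTG less often by 3.39 points (difference −3.39, −5.07 to −1.68). Against sequence outside transcripts over 50 kb away, CATATG was less frequent (difference −3.79 points, −5.54 to −2.05). For CAGCTG that difference was −0.105 points (−2.20 to 1.98).

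Of 9 other elements searched on both strands, 3 were more frequent in deep intronic centres than in flanks. TTGGCA, the core recognised by nuclear factor I proteins, was in 23.5% of centres and 10.5% of flanks (ratio 2.23, exact McNemar test, adjusted p = 3.67e-50), and in 20.2% of the centres of all regions. Compared with nearer introns its share in deep intronic centres was higher by 2.41 points (0.840 to 4.01), and the difference from sequence outside transcripts over 50 kb away, where it was 26.4%, was −2.82 points (−4.86 to −0.791). It can overlap a CANNTG hexamer, and with such overlaps left out the shares were 19.8% and 8.95% (ratio 2.21). It was in 23.5% of the centres with an extended E-box and in 23.6% of those without. GTTGCCAT, an RFX element, was in 1.58% and 0.555% (ratio 2.86, exact McNemar test, adjusted p = 5.84e-05), and TCACACCT, a T-box element, in 1.48% and 0.766% (ratio 1.93, adjusted p = 0.0135). Over all regions these stood at 1.20% and 1.22%. TAATTA of homeodomain factors, the octamer ATGCAAAT of POU factors, the AP-1 element TGACTCA, the CTCF core AGGGGGCG, the MEF2 decamer and the full NFI palindrome did not pass. TAATTA was in 8.13% of centres and 7.37% of flanks, and the ratios of the next 4 were 1.41, 0.970, 1.90 and 1.33. The palindrome was in 4 centres and in no flank.

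Host genes differed widely in how densely their deep introns were occupied. The 3787 regions lay in 1013 host genes, of which 357 had a single region and 86 had 10 or more, and 269 genes with at least 5 held 63.8% of all regions. Of 1147 genes with at least 50 kb of deep intron, 382 had no region. A gene was called above average where its exact 95% Poisson interval lay wholly above 15.3 regions per Mb and below average where it lay wholly below. By this rule 128 genes were above, 11.2% of those examined, and 61 were below, 5.32%, while 958 could not be told from the average. The number above was 51 without ab1 and 53 without ab2. A gene with little deep intron can pass in the upward direction only.

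**Figure D3:**
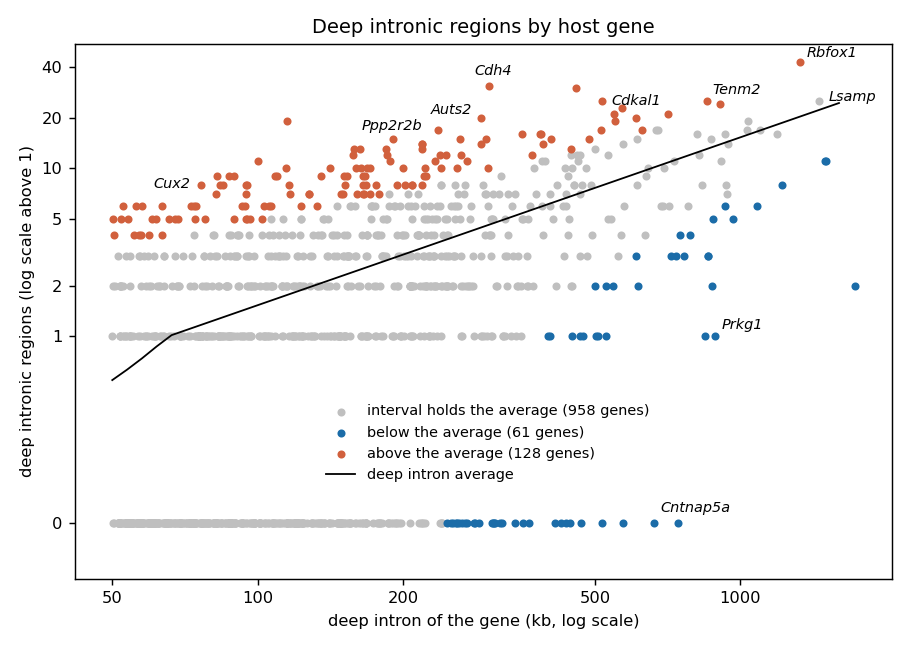
Number of deep intronic regions (y axis, log scale above 1) against the length of deep intron in kb (x axis, log scale) for the 1147 genes with at least 50 kb of it, coloured by whether the gene's 95% Poisson interval lies above, below or on both sides of the average, drawn as a line. Cdh4 had 31 regions in 300.9 kb and Cntnap5a none in 742.8 kb.

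The most regions were found in Rbfox1 (chr16:5885355-7353045, mm10, + strand), with 43 regions, 15 of them with all 3 antibodies, and 32.4 per Mb (23.5 to 43.7). In its deep introns ab1 had 62 peaks, ab2 48 and ab3 15, which is 1.95, 2.16 and 2.95 times the average of the same antibody. The extended E-box was in 35 of its 43 centres. Cdh4 (chr2:179442431-179899373), which encodes R-cadherin, a homophilic adhesion molecule, followed with 31 regions in only 300.9 kb, or 103.0 per Mb (70.0 to 146.2). This was the highest density among genes with at least 200 kb of deep intron, with 48, 32 and 7 peaks of ab1, ab2 and ab3, 6.65, 6.35 and 6.06 times the antibody average. The antibodies' own peaks are not independent of the choice of these genes, since a region needs peaks of at least 2 antibodies.

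Cdkal1, a tRNA-modifying enzyme, and Tenm2, a teneurin of synaptic adhesion, had 25 regions each, at 48.3 and 29.3 per Mb. Lsamp, a GPI-anchored adhesion protein of the IgLON group, also had 25, but in 1456 kb of deep intron, so that its 17.2 per Mb (11.1 to 25.3) could not be told from the average. Dab1, the adaptor that relays Reelin signals in migrating neurons, had 24 regions at 26.4 per Mb (16.9 to 39.3). In Dab1, ab1 had 41 peaks, ab2 27 and ab3 5, which is 1.88, 1.77 and 1.43 times the average. Camta1, a calmodulin-binding transcription activator, had 23 regions at 40.4 per Mb. Sox5, a SOX factor of deep-layer neurons, had 21 at 38.5 per Mb and the extended E-box in only 9 centres. Ntm, the IgLON protein neurotrimin, had 21 at 29.6 per Mb and stood at 15.5 when only peaks with a score of at least 100 were used, against an average of 9.70 that its interval then included. Without ab1, which leaves 926 regions, or without ab2, which leaves 920, the densities of Cdkal1, Tenm2, Dab1, Btbd11 and Tmem117 were 5.79, 5.86, 5.50, 13.7 and 11.4 per Mb. These were still higher than the averages of 3.74 and 3.72, but their intervals included the average. The part of the smaller number of regions in this was not tested.

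**Figure D4:**
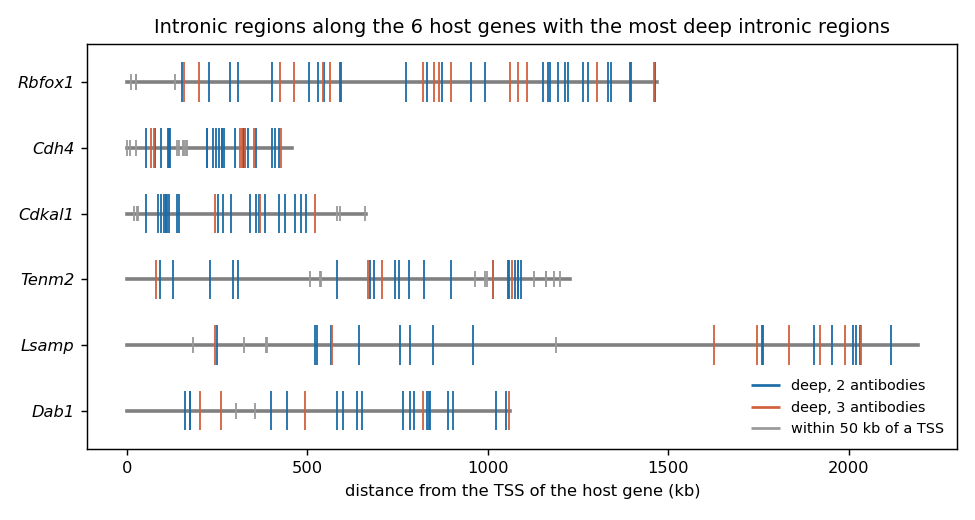
Positions of intronic regions in kb from the host gene's TSS (x axis) along the 6 genes with the most deep intronic regions apart from Gm20388, with tall marks for deep regions with 2 or 3 antibodies and short grey marks for regions within 50 kb of a TSS. Regions of Rbfox1 extended over its 1468 kb, and those of Lsamp left a stretch without any deep region in the middle of its 2192 kb.

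The map of host genes shows different spacing. In Rbfox1 the regions were distributed over most of the gene, while Cdh4, Cdkal1 and Tenm2 had runs of 7 regions, over 25423 bp, 32456 bp and 35670 bp. The remaining genes of highest density with at least 200 kb of deep intron were Ppp2r2b, a regulatory subunit of protein phosphatase 2A (71.9 per Mb), Auts2, a neurodevelopmental gene (69.0), Btbd11 (64.0), Zfp423, a zinc finger transcription factor (63.9), Pde10a, a cyclic nucleotide phosphodiesterase (59.3) and Tmem117, a transmembrane protein (57.1), besides the gene-spanning Gm20388 (65.6). In Auts2 ab1 had 30 peaks, ab2 21 and ab3 9, which is 4.31, 4.32 and 8.08 times the average. Zfp423 had 14 regions with 7 seen by all 3 antibodies, and its centres held the extended E-box in 5. Pde10a depended on the annotation, and measured from all annotated transcript starts its density was 11.3 per Mb against an average of 14.1, with an interval that included the average.

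Some long genes were nearly empty. Among genes with at least 500 kb of deep intron, no region was found in Cntnap5a (742.8 kb, upper limit 4.97 per Mb), Naaladl2 (662.1 kb, 5.57), Gm15155 (570.4 kb, 6.47) or Cntnap5c (517.4 kb, 7.13), and 1 was found in Prkg1, the cGMP-dependent protein kinase (884.9 kb, 1.13 per Mb). Cntnap5a and Cntnap5c encode contactin-associated proteins of the neurexin superfamily. Before merging, ab1 alone had 3 peaks in the deep introns of Cntnap5a and none in those of Cntnap5c, and ab2 and ab3 had none in either. With all 3 antibodies required, without ab1 or without ab2, the average fell to between 3.72 and 3.74 per Mb, and none of these 5 genes, all then without a region, was below average by the interval rule.

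Gene groups were compared by their counts of genes above and below the average, to be read against 11.2% and 5.32% of all genes examined. The list of cortical transcription factors, which also holds the transcriptional regulators Auts2 and Runx1t1, had 26 genes with at least 50 kb of deep intron. Of these, 10 were above and 0 below, with a median of 31.7 regions per Mb against 9.65 over all genes examined. Among the 10 were Camta1, Sox5, Auts2, Ebf1, Nfia, Myt1l, Cux2, Cux1 and Runx1t1. Cux2, a homeodomain factor of upper-layer neurons, had 8 regions in 76.2 kb, 105.0 per Mb (45.3 to 206.9), with 11, 9 and 3 peaks of ab1, ab2 and ab3. Its relative Cux1 had 5 regions at 82.6 per Mb, and Rfx3 had none in 74.6 kb. Of 10 neuronal RNA-binding and splicing regulators, 5 were above and 0 below (median 32.8 per Mb). These were Rbfox1, Celf2, Msi2, Celf4 (85.5 per Mb) and Elavl4, which encodes the neuronal RNA-binding protein HuD (74.1 per Mb), while Qk had none in 59.1 kb.

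**Figure D5:**
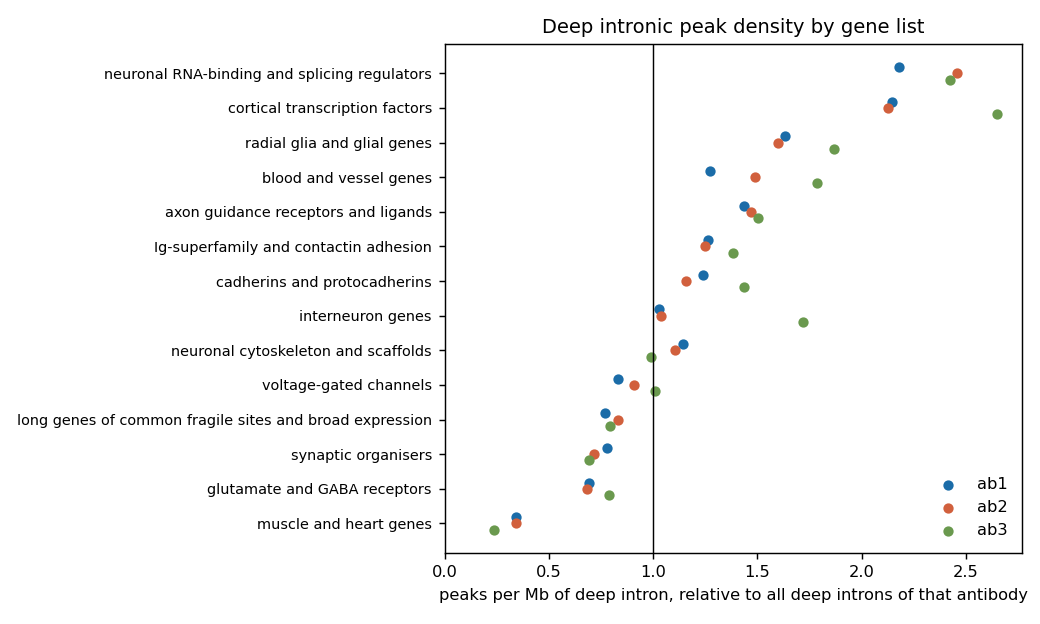
Peaks per Mb of deep intron pooled over the genes of each list and divided by the value over all deep introns of the same antibody (x axis), for ab1, ab2 and ab3 (points) and 14 gene lists (y axis), with a line at 1. Transcription factors of the cortex stood at 2.15, 2.13 and 2.65, and muscle and heart genes at 0.344, 0.342 and 0.239.

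Axon guidance genes had 8 above and 1 below of 24 (median 19.6 per Mb). The 8 were the semaphorin Sema6d, the Slit receptor Robo1, the plexin Plxna4, the Eph receptors Epha3, Epha4 and Ephb2, the ligand Slit1 and Srgap3. Slit1 had 5 regions at 92.8 per Mb, 3 of them with all 3 antibodies, and Ephb2 8 regions at 84.1, while Sema6a had none in 67.4 kb. Immunoglobulin and contactin adhesion genes had 8 above and 2 below of 23 (median 17.2 per Mb), led by Igsf21 (104.0 per Mb) and Nfasc (95.9). Cntn6, a contactin, had no region in 317.1 kb. Cadherins and protocadherins had 2 above, Cdh4 and Pcdh9 (32.4 per Mb), and 2 below of 14 (median 10.6), with none in the 412.7 kb of Pcdh11x. Of 19 genes listed under neuronal cytoskeleton and scaffolds, 5 were above and 3 below (median 22.4), with Sorbs2 at 81.1 per Mb. The list also holds genes of membrane and secreted proteins. Among them were Lingo1 at 101.0 per Mb, Spock3 with no region, and Csmd1 and Csmd3, which were below.

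Synaptic organisers and receptors had more genes below the average than above it. Synaptic organisers had 4 above, 3 of them the teneurins Tenm2, Tenm3 and Tenm4 (61.1 per Mb) and the last Grip1 (54.4), and 8 below of 25 (median 8.77), among them Nlgn1, Ptprd and Lrrc4c, and 3 on chromosome X (Il1rapl1, Il1rapl2 and Tenm1). Glutamate and GABA receptor genes had 1 above, the kainate receptor subunit Grik3 (59.7 per Mb), and 4 below of 19 (median 8.55). Grik1 had none in 341.4 kb. Of 20 voltage-gated channel genes, 1 was above, the calcium channel subunit Cacna1c with 16 regions at 45.3 per Mb, and 1 below, Kcnt2, with none in 286.8 kb (median 10.4). Cacna2d1 stood at 27.4 per Mb (7.48 to 70.3).

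Lists of other cell types were examined in the same way. Interneuron genes had 1 above of 6, Kcnip1 (76.2 per Mb), with Reln at 27.2 and Zfhx4 at 0 (median 8.72), and 0 below. Radial glia and glial genes had 1 above of 9, Plcb1 (33.0 per Mb), with Gli3 at 37.9 and Ptprz1 at 0 (median 18.6), and 0 below. Blood and vessel genes had 1 above of 10, Bach2 (79.9 per Mb), with Runx1 at 26.6 and Erg at 0 (median 17.9), and 0 below. Muscle and heart genes had 0 above and 2 below of 9, the dystrophin gene Dmd and Sgcz (median 7.06), with Neb at 35.1, Ttn at 8.35 and Pdlim5 at 0. Long genes of common fragile sites or broad expression had 2 above, Wwox (34.6 per Mb) and Exoc4 (41.4), and 5 below of 16 (median 6.50). No expression was measured, so these lists describe loci only and do not separate cell types.

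The pooled density of each list was also taken for each antibody, as the plot by list shows, and no test over 3 libraries can give p below 0.25. Relative to its own average, the value for transcription factors of the cortex was 2.15 with ab1, 2.13 with ab2 and 2.65 with ab3 (2.31 ± 0.297, SD, n = 3), and for RNA-binding and splicing regulators 2.18, 2.46 and 2.42. Axon guidance genes stood at 1.44, 1.47 and 1.50, radial glia and glial genes at 1.63, 1.60 and 1.87, blood and vessel genes at 1.27, 1.49 and 1.79, synaptic organisers at 0.780, 0.719 and 0.693, receptors at 0.693, 0.682 and 0.788, and muscle and heart genes at 0.344, 0.342 and 0.239. For the cytoskeleton and scaffold list and for channels the antibodies fell on both sides of 1, and interneuron genes stood at 1.03, 1.04 and 1.72. Deep introns of Rbfox1 alone make up a large share of the RNA-binding list, with 43 of its 101 regions. Rbfox1 itself stood at 1.95, 2.16 and 2.95, below the list with ab1 and ab2 and above it with ab3.

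Chromosome X had fewer deep intronic regions per Mb than the other chromosomes, and the sex of the pooled embryos is not given in the sources used here. It had 42, or 3.20 per Mb (2.30 to 4.32), against 16.0 per Mb (15.5 to 16.5) on the other chromosomes. Among autosomes the density ranged from 9.79 per Mb on chromosome 3 to 21.3 on chromosome 11. The X chromosome was also poorer in nearer introns (3.47-fold) and outside transcripts (3.52-fold). The median ab1 score of the deep intronic regions was 277.8 on X and 278.6 elsewhere. Of 63 genes on X with at least 50 kb of deep intron, 9 were below the average and 1 above it, and the 9 include Pcdh11x, Dmd and Gm15155. The part of the chromosome in the counts of the lists that hold such genes was not tested.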

How the data were processed

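Reads of 3 NEUROD2 and 2 GFP libraries were mapped by the authors to mm10 with Bowtie, duplicates and reads with several positions were removed, and MACS was run for each NEUROD2 antibody with the GFP control from the matching species. The deposited score is the value that MACS gave each peak, its p-value as −log10 multiplied by 10, and was not normalised between libraries by the authors. The lowest deposited score was 50, so weaker binding was not seen. GFP libraries have no peak list here and entered only through peak calling, and coverage per region is unknown.

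Peaks were merged, kept and placed on GENCODE M21 as described in the report. Introns, distances and densities used the longest transcript of each gene and known bases of GRCm38. A region in introns of more than 1 gene (51 regions) counted for each of them. The members, lists, tests and alternatives were chosen with earlier results of these data known, so no count over a list is independent support. Genes named were the 10 hosts with most regions, the 8 of highest density with at least 200 kb, the 5 of lowest density with at least 500 kb, and for each list the 2 highest and the lowest, and any other gene named was chosen after its values were seen. Some items that these rules select are not reported here. Regions named were the 6 with the highest lowest-of-3 score, the 3 farthest, the 3 widest, and 3 on each side of the threshold. Intervals were 95% Wilson, Newcombe or exact Poisson. Alternatives changed the score minimum, the overlap, the number of antibodies, the region position, the TSS set, the distance, the motif and its windows, the level of the Poisson interval (99%), and left out each antibody. Calculations were tested on simulated data. Tests and intervals came from scipy 1.17.1 and statsmodels 0.14.6, tables from pandas 2.3.3 and numpy 2.4.6 in Python 3.11.15, and plots from matplotlib 3.10.9.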

Additional observations from a re-analysis of the deposited data

How the results depend on the processing

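The choice of TSSs, the distance and the antibodies set the number of deep intronic regions more than the peaks did. It was 2400 with peaks scoring at least 100, 923 with all 3 antibodies required, 7431 with TSSs of protein-coding genes only, 2078 with all annotated transcript starts and 1569 over 100000 bp. In the last 4 settings the number of host genes was 506, 1673, 576 and 419, and the number above average 51, 219, 70 and 56. With all 3 antibodies the density was 3.73 per Mb. The ratio of deep introns to distant sequence outside transcripts moved little, to 2.01, 2.13, 1.93 and 2.22 in those settings and to 2.01 without chromosome X, a setting chosen after seeing the data. The share with all 3 antibodies was 17.8% with peaks scoring at least 100. The median ab1 score was 499.1 with that minimum, 1164 with all 3 antibodies and 266.0 over 100000 bp. The share within 1 kb of another transcript start was 6.24% with TSSs of coding genes, 2.74% over 100000 bp and 0 by construction with all starts.

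Leaving out an antibody in turn gave 920 to 3787 regions, 3.72 to 15.3 per Mb, 502 to 1013 host genes, 51 to 127 genes above average, a density ratio of 2.00 to 2.04, an E-box ratio of 2.93 to 2.96, a share near another start of 3.46 to 4.01% and a median ab1 score of 279.3 to 1157. Without ab1 or without ab2 the regions fall to those that ab3 also holds, by construction. The E-box stayed more frequent in centres than in flanks, past the threshold, in every setting run, with a ratio of 1.33 for CANNTG, 3.61 in windows of 100 bp and 2.83 to 3.06 in the other settings. All settings used peaks of the libraries in which the extended E-box was found. Of 21 named host genes, 7 kept their call in every setting run, Lsamp stood at 14.0 per Mb against an average of 16.4 with TSSs of coding genes and Pde10a at 11.3 against 14.1 with all transcript starts, neither past the interval rule. Over 100000 bp, where the average was 14.9, Btbd11, Gm20388 and Tenm2 lost their call at 24.9, 18.8 and 21.5, and Dab1 lost its call with a 99% interval.

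No paired analysis was possible because the NEUROD2 and GFP libraries share replicate numbers but the GFP libraries have no peak list here, and no contrast between groups was tested. With 1 library per antibody, no biological spread was measured.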

Other observations

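Peaks of a single antibody were not counted as regions, but deep introns held them too. With ab1 alone there were 2060 such peaks, 8.32 per Mb of deep intron, with a median score of 75.2. With ab2 alone there were 303 (median score 60.5), and with ab3 alone 8 (median 54.1). The centres of the ab1-only peaks held the extended E-box in 68.1% (66.1 to 70.1%), with 22.6% in the flanks (exact McNemar test, p = 1.50e-180), and those of the ab2-only peaks in 61.1% (55.5 to 66.4%) against 23.4%. Whether these peaks are bound by NEUROD2 was not tested.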
